A study of Mus musculus with 12 samples.

Results

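The genes described here encode enzymes that modify foreign and endogenous small molecules, and were measured by RNA-seq in isolated mouse colonic epithelial cells with and without the transcription factor TFEB. They were chosen by symbol: the cytochrome P450 families CYP1 to CYP4, UDP-glucuronosyltransferases 1 and 2, cytosolic and mitochondrial glutathione S-transferases, sulfotransferases, carboxylesterases 1 and 2, aldo-keto reductases 1B and 1C, and the quinone reductases Nqo1 and Nqo2. This gave 160 genes of the 47632 in the tables, of which 75 are P450 genes, 15 carboxylesterases, 12 aldo-keto reductases, 2 quinone reductases, 16 UDP-glucuronosyltransferases, 19 sulfotransferases and 21 glutathione S-transferases. The rule uses symbols and no measured value, though it was set with earlier results of these data known. Of the 160 genes, 67 were listed at 0 in all groups, 28 stayed under 1 FPKM (fragments per kilobase of transcript, scaled to the number of fragments mapped) without being at 0 throughout, and 65 reached 1 FPKM in at least 1 group. Among these 65, 40 reached 10 FPKM and 13 reached 100 FPKM.

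Colonic epithelial cells came from Tfeb flox/flox mice and from Tfeb dIEC mice, which carry the same floxed alleles and express Cre recombinase from the villin promoter, so that Tfeb is deleted throughout the intestinal epithelium. The animals were of the strain C57/BL6. They were sampled untreated (Day 0, aged 10 or 12 weeks), at the end of dextran sulfate sodium (DSS) given in drinking water, a chemical that injures the colonic epithelium (Day 4, aged 12 weeks), and after a recovery period on water (Day 11, aged 10 weeks). The labels give 2.5% DSS, and the study's methods give a slightly lower concentration. Each of the 6 groups held 2 animals, and both animals of a group are combined in 1 deposited FPKM value per gene. There is therefore no measure of the spread between animals, and none of the differences reported here has a replicate check or a test.

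Enzymes of this kind act in series. P450 enzymes, carboxylesterases and aldo-keto reductases oxidise, hydrolyse or reduce a lipophilic compound, and transferases then couple the product to glucuronic acid, sulfate or glutathione, which makes it water soluble and a substrate for efflux pumps. The colonic epithelium meets dietary, microbial and bile-derived compounds on its luminal side, and its mature surface cells are known to carry much of this enzyme activity. P450 enzymes of the CYP2C family also oxidise fatty acids, and sulfotransferases and aldo-keto reductases also act on steroids and on other endogenous substrates.

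Tfeb itself was low in all groups. It was listed at 0.901, 1.08 and 1.18 FPKM in Tfeb flox/flox cells on Days 0, 4 and 11, and at 0.185, 0 and 0 FPKM in Tfeb dIEC cells. The order of the genotypes followed the labels on every day, at a level near 1 FPKM or below. Differences are given as Tfeb dIEC minus Tfeb flox/flox on the log2(FPKM + 1) scale, which understates the difference of genes with low values. A gene was compared where its larger value reached 1 FPKM, and a gene was counted as higher or lower where the difference was at least 2-fold on that scale. Such a filter lets in a gene that is present in 1 genotype only because it is high there, so a count over the genes that passed describes these values and supports nothing further. The FPKM values of a group summed to 975316 and 973878 on Day 0 (Tfeb flox/flox and Tfeb dIEC), but to 1464717 and 820344 on Day 4 and to 1473485 and 827204 on Day 11. The median difference of all genes was nevertheless close to 0, at 0.06 on Days 0 and 4 and 0.08 on Day 11.

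The tables of Day 4 and Day 11 were close to each other. Of the members above 0 on both days, 8 of 65 in Tfeb flox/flox cells and 10 of 80 in Tfeb dIEC cells had exactly the same FPKM value on both days, as had 14.3% and 10.2% of all genes above 0. Of the members of at least 1 FPKM on both days, 46 of 47 and 56 of 56 lay within 1.25-fold of each other. Between Day 0 and Day 4 only 8 of 46 and 15 of 54 did so. Day 11 is therefore described beside Day 4 and is not counted as a separate observation of the same pattern. Whether these 2 tables share input reads cannot be told from the values, so a Day 11 value here is that of the table labelled Day 11.

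**Figure D1:**
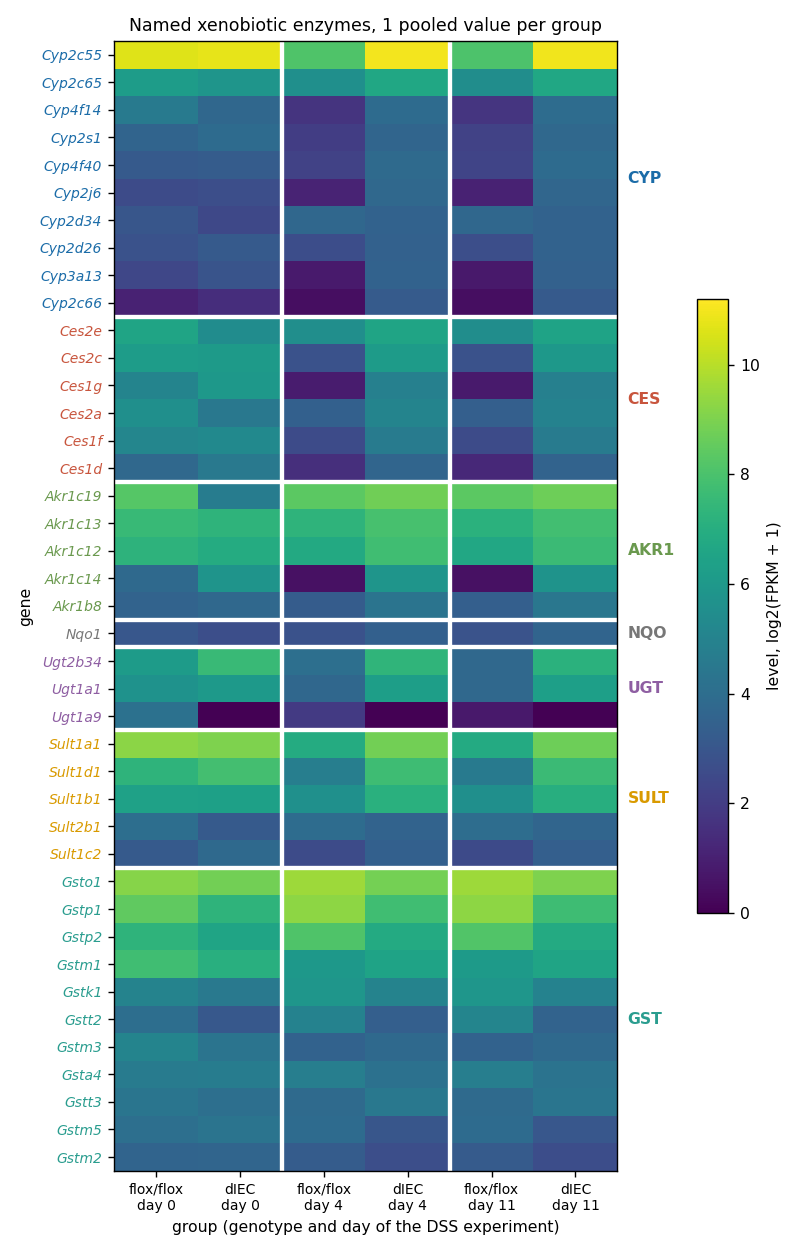
Level of the 41 members that reached 10 FPKM or differed 4-fold between genotypes on any day, in log2(FPKM + 1), with 1 pooled value for each genotype and day and genes ordered by family (CYP, P450; CES, carboxylesterases; AKR1, aldo-keto reductases; NQO, quinone reductase; UGT, UDP-glucuronosyltransferases; SULT, sulfotransferases; GST, glutathione S-transferases). The columns of Tfeb flox/flox on Days 4 and 11 are dark for many CYP, CES, UGT and SULT genes, as for Ces1g at 0.780 and 0.744 FPKM, whereas Gsto1, Gstp1 and Gstp2 are brightest in the same columns.

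In untreated Tfeb flox/flox epithelium, a few enzymes accounted for most of the expression. Cyp2c55, a P450 that hydroxylates arachidonic acid, was the most abundant member at 1614 FPKM and held 91.0% of the summed P450 FPKM. Sult1a1, which sulfates phenols, reached 609 FPKM, or 69.7% of the sulfotransferase sum. The glutathione S-transferases were led by Gsto1 at 568 FPKM, with Gstp1 at 353 and Gstm1 at 216. Among the aldo-keto reductases, Akr1c19 was listed at 307 FPKM, Akr1c13 at 187 and Akr1c12 at 152. Carboxylesterase expression was spread over several genes, with Ces2e at 91.6, Ces2c at 71.6 and Ces2a at 46.2 FPKM. Of the UDP-glucuronosyltransferases only Ugt2b34 (69.5 FPKM), Ugt1a1 (51.6), Ugt1a9 (17.3) and Ugt2b5 (5.55) reached 1 FPKM in any group, the last named after its values were seen. Nqo1, which reduces quinones, stood at 7.15 FPKM. FPKM is a value per length of transcript, but the difference between genotypes still moved with transcript length (given with the glutathione S-transferases), which limits comparisons of level between short and long genes.

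Promoters of 5 members are shown to give the sequence beside the Day 4 differences, and because TFEB binds E-boxes. Of the 5, Gstp1 was lower on Day 4 and the others were higher. The sequences are the 250 bases before the RefSeq transcription start (GRCm38.p6), on the strand of the gene and 5′ to 3′. Akr1c14 had the largest Day 4 difference, and the others are the most abundant members of the 41 whose promoter held each motif. All were chosen after their values were seen.
Akr1c14, chr13:4059341-4059590, plus strand: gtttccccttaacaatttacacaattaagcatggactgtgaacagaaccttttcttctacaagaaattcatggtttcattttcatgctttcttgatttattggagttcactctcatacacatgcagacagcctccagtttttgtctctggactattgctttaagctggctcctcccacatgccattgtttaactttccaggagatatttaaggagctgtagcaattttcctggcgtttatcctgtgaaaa
Cyp2j6, chr4:96553652-96553901, minus strand: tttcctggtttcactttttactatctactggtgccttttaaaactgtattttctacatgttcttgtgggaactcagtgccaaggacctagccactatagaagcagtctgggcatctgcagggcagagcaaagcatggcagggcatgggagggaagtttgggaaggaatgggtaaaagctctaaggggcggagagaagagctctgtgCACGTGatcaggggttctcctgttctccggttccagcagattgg
Cyp4f14, chr17:32917088-32917337, minus strand: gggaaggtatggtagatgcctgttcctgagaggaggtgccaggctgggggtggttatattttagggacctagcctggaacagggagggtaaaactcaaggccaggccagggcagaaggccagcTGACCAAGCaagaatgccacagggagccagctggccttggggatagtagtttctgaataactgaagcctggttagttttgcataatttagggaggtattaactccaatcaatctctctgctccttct
Gstp1, chr19:4037913-4038162, minus strand: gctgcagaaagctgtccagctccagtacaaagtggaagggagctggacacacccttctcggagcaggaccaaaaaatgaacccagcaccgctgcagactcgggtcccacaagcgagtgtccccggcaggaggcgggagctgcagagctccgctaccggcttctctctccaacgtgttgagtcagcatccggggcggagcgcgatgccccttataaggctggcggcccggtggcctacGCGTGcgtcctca
Cyp2c65, chr19:39060756-39061005, plus strand: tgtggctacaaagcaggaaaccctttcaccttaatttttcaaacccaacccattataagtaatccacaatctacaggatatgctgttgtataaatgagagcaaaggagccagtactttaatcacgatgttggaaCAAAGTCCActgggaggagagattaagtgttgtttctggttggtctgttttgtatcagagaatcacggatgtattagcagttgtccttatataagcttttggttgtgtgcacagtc
Capitals mark matches to motifs searched on both strands. The E-box CACGTG begins 44 bases before the start of Cyp2j6, TGACNNNGC, the core of the antioxidant response element, begins 127 bases before that of Cyp4f14, GCGTG, the core of the xenobiotic response element, begins 13 bases before that of Gstp1, and CAAAGTCCA, an element of the nuclear receptor HNF4, begins 116 bases before that of Cyp2c65. The promoter of Akr1c14 held none of these letters.

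Of the 4 motifs, 3 were in a smaller share of the members' promoters than of all promoters, and the HNF4 element was in a larger share, from 2 matches. RefSeq promoters were found for 57 of the 65 members of at least 1 FPKM, with 71 starts in all, since some genes have several. CACGTG was in 1 of the 71 (1.41%), against 6.02% of all 32851 promoters of this length. TGACNNNGC was in 4 (5.63%), against 10.2%, and GCGTG in 14 (19.7%), against 28.2%. CAAAGTCCA was in 2 (2.82%), against 0.384%. The matches are descriptions of these 250 bases and say nothing of binding, and sites elsewhere were not searched. The motifs do not overlap one another in the promoters shown.

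On Day 0, the genotypes differed little over these genes as a set. Of the 62 members compared, 8 were lower in Tfeb dIEC cells by at least 2-fold and 3 were higher, which is 12.9% and 4.84% where 16.1% and 13.5% of all 9993 genes compared were lower and higher. At 4-fold, 2 members were lower and 0 were higher, against 3.35% and 2.09% of all genes. The median difference of the members was -0.05, and that of all genes was 0.06. The members' shares were at or under those of all genes in both directions on this scale, but not under every other setting. With the median of genes of the same length decile subtracted, 14.5% of the members and 11.7% of all genes were lower, and with a pseudocount of 5 FPKM 6.45% and 6.24% were lower and 3.23% and 2.51% higher.

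Akr1c19, an aldo-keto reductase of the Akr1c gene cluster, had the largest difference on Day 0 of any member present in both genotypes. Its values in Tfeb flox/flox and Tfeb dIEC cells were 307 and 24.9 FPKM on Day 0, 329.5 and 433 on Day 4, and 329 and 421 on Day 11. It was 12.3-fold lower in Tfeb dIEC cells on Day 0 alone, and its other 5 values lay between 307 and 433 FPKM. Its neighbours did not share this, as Akr1c13 was at 187 and 156 FPKM and Akr1c12 at 152 and 118 FPKM on the same day.

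Ugt1a9, which glucuronidates phenols, was the other member lower by 4-fold on Day 0. It was listed at 17.3 FPKM in Tfeb flox/flox cells on Day 0, at 2.78 on Day 4 and at 0.711 on Day 11, and at 0 in Tfeb dIEC cells on all 3 days, so that no fold can be given. The genes of the Ugt1a locus (chr1:88055388-88219004 in GENCODE M21 on GRCm38) have separate first exons and share their remaining exons, and only 38.0% of the 50-base sequences of Ugt1a9 and 41.8% of those of Ugt1a1 are found in no other gene. How Cuffdiff divided reads between the genes of this locus therefore bears on both values, and its part in the difference was not tested. The remaining members lower by 2-fold on Day 0 were Ces2a, Ces2e, Gstp1, Gstm6, Cyp2w1 and Sult5a1, the last 3 under 4 FPKM in every group (these 3 were named after their values were seen). The 3 higher members were Ugt2b34, Akr1c14 and, with at most 1.40 FPKM, Akr1b10, which was also named after its values were seen.

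On Day 4, at the end of DSS, 25 of the 60 members compared were higher in Tfeb dIEC cells by at least 2-fold and 5 were lower. These are 41.7% and 8.33% of the members, where 25.6% and 26.1% of all 9371 genes compared were higher and lower. At 4-fold, 13 members were higher and 0 lower, against 7.36% and 10.3% of all genes. The median difference was 0.75 for the members and 0.06 for all genes. The 25 higher genes included P450 enzymes, carboxylesterases, UDP-glucuronosyltransferases and sulfotransferases, and the 5 lower ones were Gstp1, Gstp2, Gstt2, Akr1b3 and Ugt1a9. Of the 25, 7 passed the filter through Tfeb dIEC cells alone, with under 1 FPKM in Tfeb flox/flox cells. In cells taken in bulk, fewer cells of a type and less RNA per cell cannot be told apart.

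**Figure D2:**
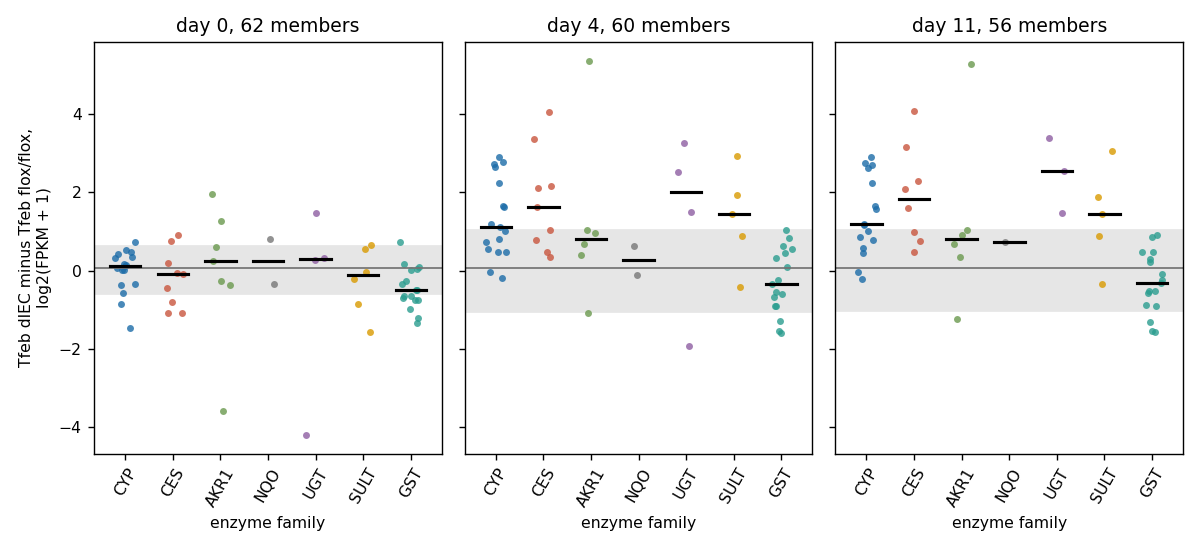
Difference between genotypes (Tfeb dIEC minus Tfeb flox/flox) in log2(FPKM + 1) for each member compared, by enzyme family and day. Each point is 1 gene, black bars are family medians, the grey line is the median of all genes and the grey band spans their lower to upper quartile. On Day 4 the medians lie between 0.27 (NQO) and 2.00 (UGT) except for GST, at -0.34 (0.11 with the median of genes of the same length subtracted and 0.21 with values divided by summed FPKM), and on Day 0 all 7 lie between -0.49 and 0.30.

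Among the P450 enzymes, 10 of 17 were higher by 2-fold on Day 4 and none was lower, where 25.6% and 26.1% of all genes were. The median was 1.11. It was 0.61 with the median of genes of the same length decile subtracted and 1.65 with values divided by summed FPKM. Cyp2c55 had values in Tfeb flox/flox and Tfeb dIEC cells of 1614 and 1748 FPKM on Day 0, 277 and 2073 on Day 4, and 269 and 2019 on Day 11. The flox/flox values of Days 4 and 11 stood apart from the other 4, and the Day 4 difference was 2.90, or 7.49-fold. Its neighbour Cyp2c65 was at 71.3 and 56.1 FPKM on Day 0, 46.9 and 102 on Day 4, and 43.6 and 100.3 on Day 11, a smaller difference in the same direction.

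Other P450 genes with far lower levels differed in the same direction. Cyp2j6, an epoxygenase of arachidonic acid, was at 4.83 and 5.39 FPKM on Day 0, 1.16 and 12.6 on Day 4, and 1.07 and 11.8 on Day 11. Cyp4f14, which ω-hydroxylates leukotriene B4 and other fatty acids, was at 23.6 and 12.5 FPKM on Day 0, 2.21 and 14 on Day 4, and 2.27 and 14.5 on Day 11. Its Day 4 difference was 2.22, and its Day 0 difference of -0.86 had the opposite sign. Cyp3a13, a member of the drug-metabolising CYP3A family, was at 4.18 and 6.47 FPKM on Day 0, 0.752 and 10.5 on Day 4, and 0.700 and 10.01 on Day 11, and passed the filter on Day 4 through Tfeb dIEC cells alone.

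Cyp2c66 was near the detection floor in Tfeb flox/flox cells on Day 4, at 0.332 FPKM, and at 8.16 FPKM in Tfeb dIEC cells. Cyp2s1 (3.15 and 11.7 FPKM on Day 4) and Cyp4f40 (3.66 and 13.6 FPKM) were higher by 1.61 and 1.65 on the log2 scale. The Cyp2d genes differed less. Cyp2d34 was at 12.2 and 10.6 FPKM and Cyp2d26 at 5.33 and 10.01 FPKM, and none of the 4 Cyp2d genes compared reached 2-fold.

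All 9 carboxylesterases compared were higher in Tfeb dIEC cells on Day 4, 6 of them by 2-fold and 4 by 4-fold, with a median of 1.63. Over all genes, 25.6% were higher by 2-fold and 7.36% by 4-fold. At any size, 51.3% of all genes and 68.5% of those in the length deciles of the carboxylesterases were higher, and 7 of the 9 were higher with the median of their decile subtracted. Carboxylesterases hydrolyse esters and amides, among them prodrugs and acylglycerols. Ces2c was at 71.6 and 66.97 FPKM on Day 0, 6.03 and 70.8 on Day 4, and 5.96 and 61.2 on Day 11, so that the Day 0 values were nearly equal and the Day 4 values 11.7-fold apart. Ces1g, which hydrolyses triacylglycerol, was at 31.9 and 61.1 FPKM on Day 0, 0.780 and 28.4 on Day 4, and 0.744 and 28.2 on Day 11. The flox/flox value lay under 1 FPKM on Days 4 and 11, and the log2 difference on Day 4 was 4.05.

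Ces1f (4.95 and 24.4 FPKM on Day 4) and Ces1d (1.85 and 11.7 FPKM) were also higher by 4-fold. Ces2a was at 46.2 and 21.4 FPKM on Day 0, 9.80 and 32.4 on Day 4, and 9.47 and 30.6 on Day 11, and Ces2e was at 91.6 and 42.7 FPKM on Day 0, 45.1 and 93.2 on Day 4, and 43.8 and 88.1 on Day 11. Both were lower in Tfeb dIEC cells on Day 0, by 2.16-fold and 2.15-fold, and higher on Days 4 and 11. Ces2c shares 32.6% of its 50-base sequences with the pseudogene Ces2d-ps, so its reads could have been divided with that locus. Ces1g and Ces2e hardly share sequence with other genes, with 98.3% and 96.7% of their 50-base sequences found in no other gene.

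The aldo-keto reductases held the largest difference of all members. Akr1c14, a 3α-hydroxysteroid dehydrogenase, was at 13.4 and 54.3 FPKM on Day 0, 0.421 and 56.9 on Day 4, and 0.421 and 53.6 on Day 11. It was below 1 FPKM in Tfeb flox/flox cells on Days 4 and 11 and above 50 FPKM in Tfeb dIEC cells on all 3 days, with a Day 4 difference of 5.35. On Day 0 the difference was 1.94. Akr1c12 and Akr1c13 differed less, at 112 and 218 FPKM and at 153 and 244 FPKM on Day 4. These 2 genes share 28.6% and 24.2% of their 50-base sequences with each other.

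Of the aldo-keto reductases of the 1B type, Akr1b8, which reduces aldehydes, was higher on Day 4 at 8.61 and 18.7 FPKM. Akr1b3, the aldose reductase of the polyol pathway, was lower at 3.95 and 1.33 FPKM (named after its values were seen). Nqo1 was at 7.15 and 5.48 FPKM on Day 0, 5.998 and 9.89 on Day 4, and 6.26 and 11.03 on Day 11, within 2-fold on each day.

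Of the UDP-glucuronosyltransferases, which couple glucuronic acid, 3 of 4 compared on Day 4 were higher in Tfeb dIEC cells by 2-fold, and Ugt1a9 was lower. Of the sulfotransferases, 3 of 5 were higher by 2-fold and 0 were lower. Over all genes, 25.6% were higher and 26.1% lower. Ugt2b34, which glucuronidates steroids and drugs, was at 69.5 and 193 FPKM on Day 0, 15.8 and 161 on Day 4, and 12.7 and 141 on Day 11. It was higher in Tfeb dIEC cells on Day 0 already, by 2.78-fold, and by 10.2-fold on Day 4. Ugt1a1, the transferase that conjugates bilirubin, was at 51.6 and 65.2 FPKM on Day 0, 12.6 and 75.9 on Day 4, and 12.7 and 77.9 on Day 11. Its Day 0 values differed by 1.26-fold and its Day 4 values by 6.05-fold.

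Sult1a1 was at 609 and 528 FPKM on Day 0, 118 and 452 on Day 4, and 114 and 419 on Day 11. Sult1d1, which sulfates catecholamines and other amines, was at 156 and 230.4 FPKM on Day 0, 26.5 and 207 on Day 4, and 22.8 and 197 on Day 11. For both genes the flox/flox values of Days 4 and 11 were the lowest 2 of the 6. Sult1b1, which sulfates thyroid hormone, was at 83.02 and 80.9 FPKM on Day 0, 48.6 and 135 on Day 4, and 47.2 and 130.0 on Day 11, with a Day 4 difference of 1.46. Sult2b1, a sulfotransferase of cholesterol, was at 14.8 and 10.8 FPKM on Day 4, within 2-fold. Sult1c2 was at 4.90 and 9.91 FPKM.

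The glutathione S-transferases differed from the other members in their counts on Day 4. Of the 17 compared on Day 4, 3 were lower by 2-fold, 1 was higher, and the median was -0.34, while over the other 43 members 2 were lower, 24 were higher and the median was 1.04. Over all genes, 26.1% were lower and 25.6% higher. The sign of the family's median depended on the scaling, as it was 0.11 with the median of genes of the same length decile subtracted and 0.21 with each value divided by the summed FPKM of its group. Gstp1, the abundant π-class enzyme that conjugates electrophiles, was at 353 and 153 FPKM on Day 0, 623 and 214 on Day 4, and 628 and 211 on Day 11. It was lower in Tfeb dIEC cells on all 3 days, by 2.30-fold, 2.91-fold and 2.98-fold. Gstp2 was at 156 and 91.8 FPKM on Day 0, 276 and 113 on Day 4, and 281 and 113 on Day 11, and 49.1% of its 50-base sequences are shared with Gstp1, so the pair cannot be fully separated.

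Gstt2, a θ-class enzyme, was at 15.4 and 7.38 FPKM on Day 0, 30.5 and 9.40 on Day 4, and 33.1 and 10.7 on Day 11. Gsto1, an ω-class enzyme that reduces dehydroascorbate and methylated arsenicals, was at 568 and 445 FPKM on Day 0, 745 and 465 on Day 4, and 759.7 and 528 on Day 11 and within 2-fold on each day. Gstk1, the κ-class enzyme, was at 58.5 and 30.9 FPKM on Day 4. These 3 genes were higher in Tfeb flox/flox cells on every day, except that Gsto1 was at 0.16 and 0.31 on the log2 scale on Days 4 and 11 with values divided by summed FPKM. The μ-class genes were mixed. Gstm1 was at 216 and 132 FPKM on Day 0, 61.3 and 90.5 on Day 4, and 66.8 and 92.5 on Day 11, so that the sign of the difference turned between Day 0 and Day 4 with neither value at 2-fold. Gstm5 was at 13.9 and 6.98 FPKM on Day 4, and the single higher gene, Gstm7, was at 0.406 and 1.87 FPKM (named after its values were seen).

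Transcript length moved with the difference between genotypes across all genes, and the glutathione S-transferases are short. Over all genes compared on Day 4, the median difference was -1.89 in the lowest length decile (38 to 485 nt), -0.66 in the third (789 to 1144 nt), 0.19 in the fifth (1515 to 1894.5 nt) and 0.65 in the eighth (2827 to 3482 nt). The median length was 1058.5 nt for the glutathione S-transferases compared and 1928 nt for the other members. Genes of the same length deciles had a median difference of -0.66 for the former and 0.54 for the latter, where the members themselves were at -0.34 and 1.04. With the decile medians subtracted, family medians were 0.61 for P450 enzymes, 1.09 for carboxylesterases, 0.85 for aldo-keto reductases, 1.64 for UDP-glucuronosyltransferases and 0.82 for sulfotransferases. With the median of the same length decile subtracted, 21 members were higher by 2-fold on Day 4 and 3 were lower, against 20.1% and 20.8% of all genes. Gstp1 was then at -0.88 and Gstp2 at -0.63, no longer past 2-fold, whereas Gstm1 was higher at 1.21. The part of transcript length in these differences was not tested.

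**Figure D3:**
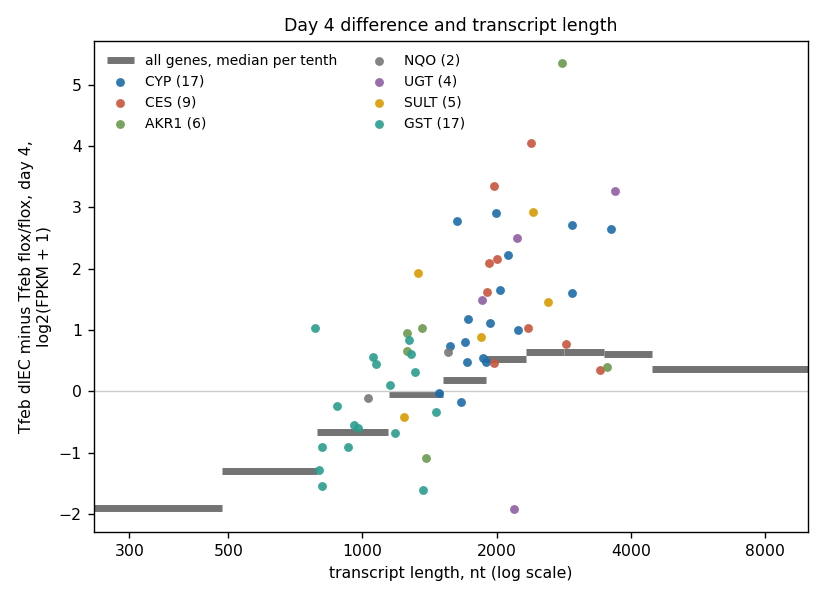
Day 4 difference (Tfeb dIEC minus Tfeb flox/flox, log2(FPKM + 1)) against the median transcript length of each gene in nucleotides on a log scale. Points are the 60 members compared, coloured by family with the number of genes in brackets, and grey bars are the medians of all genes in deciles of length, the outermost bars running past the axis. Most CYP, CES, UGT and SULT genes lie above the bar of their length and most GST genes are among the shorter ones, where the bars are below 0.

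The values of Day 4 and Day 0 within a genotype come from tables that were scaled separately, so the following differences are set across tables. In Tfeb flox/flox cells, 26 of 61 members were lower on Day 4 than on Day 0 by at least 2-fold and 0 were higher, against 25.7% and 17.5% of all 9617 genes compared. In Tfeb dIEC cells, 2 of 62 were lower and 9 were higher, against 15.6% and 9.26% of all genes. The median difference of the members was -0.64 in Tfeb flox/flox cells and 0.11 in Tfeb dIEC cells, and that of all genes was -0.20 in both. Of the 26 members that were lower in Tfeb flox/flox cells, 23 (88.5%) lay within 2-fold of Day 0 in Tfeb dIEC cells, as did 81.4% of all 2469 genes so chosen. The difference between days was larger (less negative or more positive) in Tfeb dIEC than in Tfeb flox/flox cells for 52 of the 65 members of at least 1 FPKM on either day (80%), and for 50.5% of all genes so filtered.

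**Figure D4:**
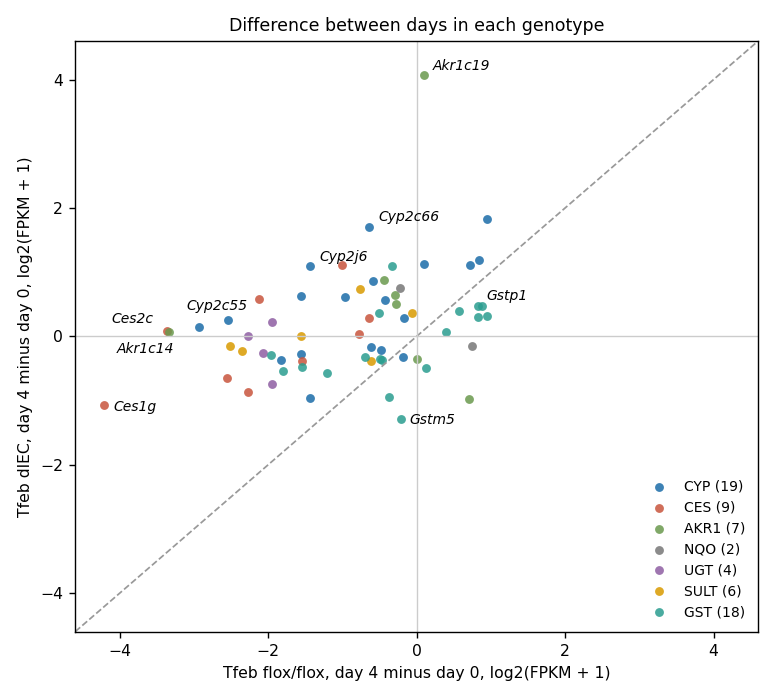
Difference between Day 4 and Day 0 (log2(FPKM + 1)) of the 65 members of at least 1 FPKM on either day, in Tfeb flox/flox cells on the horizontal axis and in Tfeb dIEC cells on the vertical axis. The dashed line marks equal differences, colours mark families and brackets give the number of genes. 52 points lie above the line, with Ces1g at -4.21 and -1.08 the lowest in Tfeb flox/flox cells and Akr1c19 at 0.10 and 4.06 the highest in Tfeb dIEC cells.

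In Tfeb flox/flox cells these counts varied by family, where 25.7% of all genes were lower by 2-fold. All 4 UDP-glucuronosyltransferases compared and 7 of 9 carboxylesterases were lower by 2-fold on Day 4 than on Day 0, as were 7 of 16 P450 genes, 3 of 6 sulfotransferases, 4 of 18 glutathione S-transferases and 1 of 6 aldo-keto reductases. Genes of the same length deciles had medians of -0.46 for UDP-glucuronosyltransferases, -0.48 for carboxylesterases and P450 genes, and 0.24 for glutathione S-transferases. The part of length in these counts was not tested. The difference on the log2(FPKM + 1) scale was -4.21 for Ces1g, -3.34 for Akr1c14, -3.37 for Ces2c and -2.94 for Cyp4f14, with the first 2 genes under 1 FPKM on Day 4. The summed FPKM of the P450 genes was 1773 on Day 0 and 366.9 on Day 4, and that of the glutathione S-transferases was 1471 and 1882. In Tfeb dIEC cells the sums were 1888 and 2295 for the P450 genes and 965.1 and 1007 for the glutathione S-transferases. All 160 genes together made up 0.537% of the summed FPKM of all genes in Tfeb flox/flox cells on Day 0 and 0.217% on Day 4, and 0.474% and 0.684% in Tfeb dIEC cells.

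The members that were higher on Day 4 than on Day 0 in Tfeb dIEC cells were Akr1c19, Ces2e, Cyp2j6, Cyp2c66, Cyp2d34 and 4 genes under 5 FPKM. Akr1c19 accounted for the single difference of over 4-fold. Ces2e went from 42.7 to 93.2 FPKM and Cyp2j6 from 5.39 to 12.6 FPKM. The 2 lower members were Ces1g and Gstm5. Ces1g was thus lower on Day 4 than on Day 0 in both genotypes, with values of 61.1 and 28.4 FPKM in Tfeb dIEC cells.

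On Day 11, 23 of 56 members were higher in Tfeb dIEC cells by 2-fold (41.1%) and 4 were lower (7.14%), where 26.1% and 25.7% of all 9365 genes were higher and lower. At 4-fold, 13 were higher and 0 lower, against 7.46% and 10.2% of all genes. The median difference of the members was 0.86 and that of all genes 0.08. The 4 lower genes were Gstp1, Gstp2, Gstt2 and Akr1b3. As given above, the values of Day 11 lie close to those of Day 4 in both genotypes.

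Members of the same family often lie side by side in the genome. On GRCm38, the Ces1 cluster (chr8:93020214-93379725) holds 8 members and the Ces2 cluster (chr8:104734003-105021178) holds 7, and the 9 of them compared on Day 4 were all higher in Tfeb dIEC cells. All 4 genes compared in the Cyp2c cluster (chr19:39007019-40187333, 14 members) were higher by 2-fold, as were 3 of 4 in the Cyp4f cluster (chr17:32452723-32947402, 8 members). In the Akr1c cluster (chr13:4049011-4586541, 8 members) 1 of 4 was higher by 2-fold, Akr1c14. In the Gstm cluster (chr3:107895821-108044894, 7 members) 1 of 7 was higher by 2-fold and 4 were higher at any size. Over all genes compared, 25.6% were higher by 2-fold and 51.3% at any size, and 68.5% at any size in the length deciles of the carboxylesterases. In the Cyp2c cluster, Cyp2c66 and Cyp2c68 passed the filter through Tfeb dIEC cells alone, with 0.332 and 0 FPKM in Tfeb flox/flox cells (Cyp2c68 was named after its values were seen). Neighbouring genes are counted here as genes, not as separate observations. Of the 65 members of at least 1 FPKM, 51 have at least 80% of their 50-base transcript sequences in no other gene, and over the 46 of those compared on Day 4 the median difference was 0.78.

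The electron donors and cosubstrates of these enzymes are made by other genes, which were taken from a list of 15. On Day 4, 9 of the 15 were higher in Tfeb dIEC cells by 2-fold and 2 were lower, and 4 were higher by 4-fold, where 25.6%, 26.1% and 7.36% of all genes were. On Day 0, 1 of 14 compared was higher and 1 was lower, against 13.5% and 16.1% of all genes. Ugdh, which makes the UDP-glucuronic acid that UDP-glucuronosyltransferases use, was at 255 and 420.3 FPKM on Day 0, 10.1 and 367 on Day 4, and 10.5 and 364 on Day 11. Ugp2, which makes the UDP-glucose before it, was at 21.7 and 43.9 FPKM on Day 0, 2.68 and 36.6 on Day 4, and 2.48 and 34.5 on Day 11.

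Papss1 and Papss2, the synthases of the sulfate donor PAPS, were at 30.98 and 61.9 FPKM on Day 0, 1.73 and 35.03 on Day 4, and 1.79 and 37.5 on Day 11 and at 127 and 196 FPKM on Day 0, 33.98 and 229 on Day 4, and 30.6 and 213 on Day 11, respectively. These 4 genes, which supply glucuronidation and sulfation, were the ones past 4-fold. Por, the reductase that passes electrons to microsomal P450 enzymes, was at 14.7 and 14.7 FPKM on Day 0, 8.80 and 23.1 on Day 4, and 9.34 and 25.1 on Day 11. The 2 lower genes were Cyb5a, the electron carrier cytochrome b5, at 487 and 234 FPKM on Day 4, and Gclm, a subunit of the enzyme that begins glutathione synthesis, at 12.6 and 5.18 FPKM (Por, Cyb5a and Gclm were named after their values were seen). With the median of genes of the same length decile subtracted, Cyb5a was at 0.24, Gclm at -1.78 and Gclc at -1.15 on the log2 scale. Of the higher genes, Por was then at 0.66 and G6pdx at 0.42, within 2-fold. Ugdh, Ugp2, Papss1 and Papss2 were at 4.42, 2.72, 3.09 and 2.10 (Gclc and G6pdx were named after their values were seen).

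**Figure D5:**
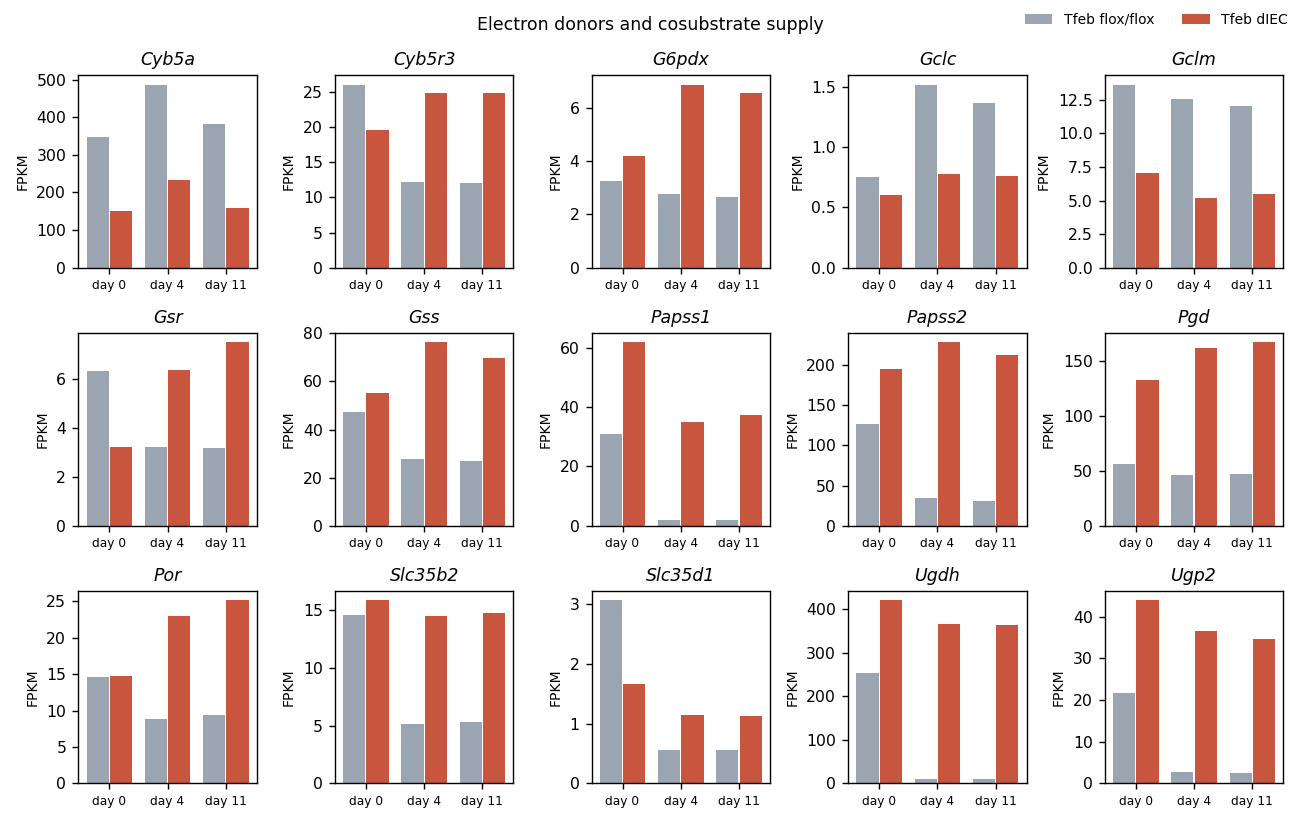
FPKM of the 15 genes listed as electron donors or cosubstrate supply, with 1 pooled value for each genotype and day (grey bars, Tfeb flox/flox; red bars, Tfeb dIEC; each panel has its own vertical axis starting at 0). Ugdh, Ugp2, Papss1 and Papss2 show grey bars on Days 4 and 11 far below those of Day 0, and Cyb5a, Gclc and Gclm show the red bars below the grey ones on all 3 days.

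The transcription factors that sense xenobiotics or drive these genes were mostly low. Nr1i2, the pregnane X receptor, was at 1.40 and 1.31 FPKM on Day 0, 0.924 and 2.26 on Day 4, and 0.918 and 2.28 on Day 11. Nr1i3, the constitutive androstane receptor, reached at most 0.201 FPKM, and Ahr, the aryl hydrocarbon receptor, at most 0.495 FPKM. Ahrr, its repressor, was listed at 0 or 0.155 FPKM, and Arnt, its partner, was at 0.857 and 3.70 FPKM on Day 4. Nfe2l2, which encodes NRF2, was at 29.98 and 36.9 FPKM on Day 0, 12.4 and 50.2 on Day 4, and 12.2 and 52.6 on Day 11.

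Hnf4a, a nuclear receptor of enterocyte genes, was at 24.4 and 46.5 FPKM on Day 0, 19.98 and 47.1 on Day 4, and 20.8 and 48.1 on Day 11. Ppara, a fatty acid receptor, was at 5.72 and 6.18 FPKM on Day 0, 0.176 and 3.23 on Day 4, and 0.192 and 2.36 on Day 11, with a Day 4 difference of 1.85 on the log2 scale and Day 0 values within 2-fold. Keap1, the inhibitor of NRF2, was at 7.01 and 5.14 FPKM on Day 4, and Rxra, the partner of several of these receptors, at 2.33 and 1.70 FPKM. Of the 7 sensors compared on Day 4, 4 were higher in Tfeb dIEC cells by 2-fold and none was lower, where 25.6% and 26.1% of all genes were. Of the 4, Ppara and Arnt passed the filter through Tfeb dIEC cells alone. With the median of genes of the same length decile subtracted, Hnf4a was at 0.59 and Arnt at 0.70 on the log2 scale, within 2-fold. Nfe2l2 was then at 1.30 and Ppara at 1.21, and Keap1 was lower by 2-fold at -1.03.

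Other enzymes of this metabolism outside the symbol families were near the shares of all genes on Day 4. Of 18 compared, 5 were higher by 2-fold and 4 were lower, with a median of -0.22, where 25.6% and 26.1% of all genes were higher and lower. With the median of genes of the same length decile subtracted, Aldh2 at 0.985, Fmo5 at 0.92, Cbr1 at -0.40 and Mgst2 at -0.42 were no longer past 2-fold (named after their values were seen). Aldh1b1, a mitochondrial aldehyde dehydrogenase, was at 154 and 156 FPKM on Day 0, 16.01 and 75.6 on Day 4, and 16.8 and 81.4 on Day 11, and Aldh3a2, which oxidises fatty aldehydes, was at 10.6 and 12.3 FPKM on Day 0, 1.18 and 15.4 on Day 4, and 1.16 and 16.2 on Day 11. Of the NRF2 target genes, 5 were compared and 3 of them were lower, with a median of -1.14. The 3 were Fth1, Ftl1 and Txn1, which are short, and with the median of genes of the same length decile subtracted Fth1 was at -0.48 and Ftl1 at -0.55, within 2-fold, and Txn1 at -1.53 (Fth1 and Ftl1 were named after their values were seen). Txn1, thioredoxin, was at 1236 and 555 FPKM on Day 0, 4901 and 1073 on Day 4, and 4518 and 1094 on Day 11. Txnrd1, thioredoxin reductase, was listed at 0 in all groups, which in a gene that every cell uses may be a failed estimate. Of the 4 efflux transporters compared, 2 were higher by 2-fold, and Abcg2, the breast cancer resistance protein, was at 11.5 and 20.1 FPKM on Day 0, 1.54 and 9.24 on Day 4, and 1.46 and 9.48 on Day 11.

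Markers of cell types also differed between the genotypes on Day 4, in both directions. Of 8 colonocyte markers, all compared on Day 4, 5 were higher in Tfeb dIEC cells by 2-fold and 1 was lower, while their summed level was 58400 in Tfeb flox/flox and 37510 FPKM in Tfeb dIEC cells, most of it Car1 and Guca2a. On Day 4, Car1 was at 24740 and 26610 FPKM, Guca2a, the lower marker, at 33250 and 9202, and Car4 at 232 and 147. Krt20, a keratin of surface cells, was at 168 and 102 FPKM on Day 0, 101 and 931 on Day 4, and 101 and 937 on Day 11 (Car4 and Krt20 were named after their values were seen). Of 6 goblet cell markers, 2 were higher by 2-fold and 4 were lower on Day 4, with sums of 121100 and 20630 FPKM. Several lower markers are short. Guca2a, Agr2 and Zg16, at -1.85, -1.84 and -2.23 on the log2 scale, lie in the length decile of 485 to 789 nt, where all genes had a median of -1.29. Spink4, at -3.46, lies in the lowest decile, with a median of -1.89 (Agr2, Zg16 and Spink4 were named after their values were seen). Of 5 Paneth cell markers, 4 were compared and 3 were lower, with sums of 5436 and 657.8 FPKM and the defining marker Mmp7 at 0. Of 6 epithelial markers, 2 were higher by 2-fold, with sums of 9082 and 9702 FPKM. Crypt and cycling cell markers summed to 18.1 and 24.8 FPKM on Day 0 and to 5.11 and 3.74 FPKM on Day 4. The part of cell composition in the differences of the enzymes was not tested.

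The liver and the small intestine express many of the same enzymes. Of 4 hepatocyte markers, Alb, Apoh and Serpina1c were listed at 0 in all 6 groups, and Ttr was the highest, between 2.85 and 10.3 FPKM. Of 7 small-intestinal enterocyte markers, Apoa4 and Lct were listed at 0 in all groups, 4 were compared on Day 4, 2 were higher by 2-fold and 1 was lower. Fabp2 was the highest at 852 and 799 FPKM on Day 4, the lower marker was Fabp6 at 23.96 and 2.65 FPKM, and the higher ones were Rbp2 at 1.24 and 7.56 FPKM and Alpi at 0 and 1.66 FPKM. The 9 immune cell markers summed to between 1.04 and 7.72 FPKM over the groups, with Lyz2 the highest on average and S100a9 at 0 in all 6, and the 6 stromal markers to between 2.37 and 5.38 FPKM, most of it Vim, with Col1a2 at 0 in all 6.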

How the data were processed

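RNA-seq was performed on colonic epithelial cells freed with EDTA, in 6 groups of 2 animals. Full-length cDNA libraries were made by a SmartSeq2-type protocol, and samples were grouped by the genotype and day in their labels. Reads were mapped by the authors to mm10 with TopHat2 (version 2.0.14) and Bowtie, and genotypes compared within each day with Cuffdiff (version 2.1.1), as named in the submitters' processing notes and the study's methods. The 3 deposited tables hold 1 FPKM value per genotype, which the authors made by pooling both animals, with scaling done separately for each table. The authors' fold changes, p-values and q-values in the same tables were not used. No counts are given, so the depth is unknown and no interval is given.

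Differences of log2(FPKM + 1) were computed with Python 3.11.15, numpy 2.4.6 and pandas 2.3.3, and figures with matplotlib 3.10.9. A gene was compared if it had at least 1 FPKM in either value, and counted at 2-fold or 4-fold. Members were named if they reached 10 FPKM in any group or differed 4-fold on any day (41 of 160), and listed related genes if they did both or were sensors. Gene positions and lengths (median of basic transcripts) come from GENCODE M21, which matched 47218 of 47632 genes and 160 of 160 members. A 50-base sequence was counted as shared if any transcript of another gene holds it. Members and lists were chosen with earlier results of these data known. Alternatives were other pseudocounts (0.1 and 5 FPKM), filters, centring, length correction and subsets of members.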

Additional observations from a re-analysis of the deposited data

How the results depend on the processing

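Among the genes named by the rule, no difference of 2-fold or more changed direction under the alternatives run on it. Cyb5a, named after its values were seen, went from -1.05 to 0.24 on Day 4 with the median of its length decile subtracted. No count changed direction, but medians near 0 changed sign and several counts moved by over 1.5 times. The median of the glutathione S-transferases, -0.34 on Day 4 and -0.33 on Day 11, was 0.11 and 0.07 with the median of the same length decile subtracted and 0.21 and 0.27 with values divided by summed FPKM. On Day 0, the median of the members (-0.05) was 0.02 over those of mostly unique sequence, that of the P450 genes (0.11) was -0.12 after length correction and -0.11 at a minimum of 10 FPKM, and at that minimum those of the aldo-keto reductases (0.26) and carboxylesterases (-0.09) were -0.26 and 0.05. With a mean of at least 1 FPKM, the Day 0 medians of the aldo-keto reductases and quinone reductases (0.23) were -0.0025 and -0.33. Under a pseudocount of 5 FPKM, 4 members were lower on Day 0 (main count 8), 3 lower on Day 4 (5), 15 lower on Day 4 than on Day 0 in Tfeb flox/flox cells (26), and 0 lower and 2 higher in Tfeb dIEC cells (2 and 9), with a Day 4 median of 0.43 (0.75). The shares of all genes fell too, to 6.24%, 13.6%, 7.14%, and 2.65% and 2.5%, in that order. Under a pseudocount of 0.1 FPKM, 5 were higher on Day 0 (3), against 21% of all genes. In that setting 4 were higher on Day 4 than on Day 0 in Tfeb flox/flox cells (0) and 6 lower in Tfeb dIEC cells (2), against 21.8% and 23.7%. With the median of all genes subtracted, these last 2 counts were 6 and 1, against 22.1% and 10.5%. With that of the same length decile they were 3 and 1, against 17.8% and 10.5%. After length correction 3 members were lower on Day 4 (5) and 2 on Day 11 (4), against 20.8% and 21.1%. At 4-fold, lower and higher counts were 2 and 0 on Day 0, 0 and 13 on Day 4, 0 and 13 on Day 11, 12 lower for Tfeb flox/flox cells between days, and 0 and 1 for Tfeb dIEC cells. With a minimum of 10 FPKM, 5 were lower on Day 0 and 3 on Day 4, and the Day 4 median was 1.07. Without a filter the medians of Days 4 and 11 were 0.00, since most members are at or near 0. Among members of mostly unique sequence, 2 were lower on Day 4 and 2 on Day 11.

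Dividing each value by the summed FPKM of its group, an alternative added after the data were seen, moved the ratio of the genotypes by 0.84 (log2) on Day 4 and 0.83 on Day 11, and differences on the log2(FPKM + 1) scale by less, the more so for genes with low values. Then 39 members were higher and 1 lower on Day 4, against 40.5% and 15.2% of all genes, 38 were higher and 0 lower on Day 11, against 41% and 14.9%, the medians were 1.38 and 1.45, and 1 member was lower on Day 4 than on Day 0 in Tfeb dIEC cells. No paired analysis was possible because each genotype has 1 pooled value per day, and for the same reason no animal could be left out. The depth behind low values is unknown.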

Other observations

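The membrane-bound glutathione S-transferases, which fall outside the symbol families, differed among themselves on Day 4, with Mgst3 and Mgst2 lower in Tfeb dIEC cells by over 2-fold and Mgst1 within 2-fold (these and the genes that follow were named after their values were seen). Mgst3 was at 686 and 207 FPKM on Day 0, 1224 and 340.4 on Day 4, and 1193 and 324 on Day 11 in Tfeb flox/flox and Tfeb dIEC cells. Mgst2 was at 227 and 68.8 FPKM on Day 4, and Mgst1 at 375 and 263 FPKM. With the median of genes of the same length decile subtracted, the Day 4 differences of Mgst3, Mgst2 and Mgst1 were -1.18, -0.42 and 0.15 on the log2 scale, so that Mgst3 alone of the 3 was past 2-fold. The ferritin genes Fth1 and Ftl1, which store iron and are targets of NRF2, were at 8197 and 3711 FPKM and at 3280 and 914 FPKM on the same day.

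Aldh2, the mitochondrial acetaldehyde dehydrogenase, was at 187 and 293 FPKM on Day 0, 93.4 and 292 on Day 4, and 93.2 and 304 on Day 11. Adh5, which acts on formaldehyde bound to glutathione, was at 27.3 and 69.04 FPKM on Day 4, and Fmo5, a flavin monooxygenase, at 0.461 and 3.29 FPKM. Adh1, the classical alcohol dehydrogenase, was at 530.1 and 296 FPKM, within 2-fold. Cbr1 and Cbr3, carbonyl reductases, were at 69.6 and 32.9 FPKM and at 3.38 and 0.651 FPKM, both lower by 2-fold, and Cbr1 at -0.40 on the log2 scale with the length decile subtracted. In that setting Aldh2 was at 0.985, Fmo5 at 0.92 and Adh5 at 1.12.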
